A study of Mus musculus with 2 samples.

Results

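The Igkv segments are the variable (V) segments of the immunoglobulin kappa light chain, and their members here are the 160 mouse genes whose symbols begin with Igkv, out of 55413 genes that GENCODE vM21 places on the assembled chromosomes of mm10. All 160 lie on chromosome 6, between the start of Igkv2-137 at 67555497 and the end of Igkv3-1 at 70704177, a V array of 3.15 Mb. GENCODE classes 100 of them as V genes and 60 as V pseudogenes, 75 are on the plus strand and 85 on the minus strand, and their symbols fall into 20 subgroups. Members were chosen by symbol and position, not by any measured value.

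Binding of CTCF, a zinc finger protein that holds chromatin loops together with cohesin, was mapped by chromatin immunoprecipitation and sequencing (ChIP-seq) in liver of mouse embryos of the strain B6NCrl at 14.5 days. There was 1 group, with 2 libraries, of unmodified and untreated tissue, and no second condition. The tissue was a pulverized pool of livers from several dissections and from both sexes, and both libraries carry the same biosample label, so the spread between them may be technical. Peaks hold no expression values, so the tissue label could not be checked against marker genes, and read depth is not given in the files used here. Peak signal is on a relative scale and was compared only within a list.

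Fetal liver at this stage is a blood-forming organ, and B cell precursors are among its minor cell types. In such precursors a kappa light chain gene is assembled by joining 1 V segment to 1 of the J segments upstream of Igkc, the constant segment. Joining is directed by recombination signals that flank each segment, and the signal of a kappa V segment begins with the heptamer cacagtg. In B cell precursors, work by others places a pair of CTCF-bound elements, Cer and Sis, between the V array and the J segments, and places kappa enhancers between Igkj and Igkc and past Igkc. None of these elements is annotated in the reference used here, so the peaks below are named by position only. In pooled tissue, binding in fewer cells and weaker binding in all cells cannot be told apart.

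The recombination signals mark where each V segment is joined. The heptamer started at the first base past the end of 106 of the 160 Igkv segments, 84 V genes and 22 pseudogenes, whereas 0.901% of all genes held it anywhere in the 30 bases past their end. The outermost segments are shown 5′ to 3′ from RefSeq's GRCm38 (mm10), with the heptamer in capitals.
Igkv2-137 (chr6:67556217-67556246, plus strand): CACAGTGatacagccctgaacaaaaacctc
Igkv3-1 (chr6:70704178-70704207, plus strand): CACAGTGctccagggctgaacaaaaacctc

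The locus held 14 peaks of the optimal list, the authors' main set of reproducible peaks. The letters of the CTCF core motif were searched on both strands within 50 bp of each summit, the highest point of a peak, with at most 2 mismatches. The 6 windows between the V array and 50 kb past Igkc are shown first because they hold the 4 strongest peaks of the locus, and because all 6 were found in both replicates. Each line is 30 bases, 5′ to 3′ on the strand of the match, with the matched letters in capitals.
V to J interval peak 1 (chr6:70709460-70709489, minus strand): atgctgtaTCAGCAGATGGCAGtgttgtat
V to J interval peak 2 (chr6:70709867-70709896, minus strand): aagctgtgTCAGCAGATGGCAGtgctgtat
V to J interval peak 3 (chr6:70713304-70713333, plus strand): gttaatggCCACTTGAGGGAGCtaaagata
V to J interval peak 4 (chr6:70714394-70714423, plus strand): caatgtggCCAGCAGAGGCCCCtagtcagc
past Igkc peak 1 (chr6:70752651-70752680, minus strand): ggcagtggCCAGAAGGGAGCGCtccagccc
past Igkc peak 2 (chr6:70768943-70768972, minus strand): tgctgtgcCCACTAGGGGGCTCtcctgctc

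Peaks 1 and 2 of the V to J interval carried the same 14 matched letters. Their 30-base windows were identical at 27 bases, and their 300-base windows, aligned without gaps, at 164 bases. The next 4 windows belong to V array peaks: the strongest 2 of the array (peaks 3 and 6), and a pair of weak ones (peaks 4 and 5) whose sequences resemble each other.
V array peak 3 (chr6:68668588-68668617, plus strand): atttgccgTCACAAGATGGCGCcagattcc
V array peak 6 (chr6:70147174-70147203, minus strand): ataacctaCCACTAGGGGCAGGagcctggc
V array peak 4 (chr6:69733056-69733085, minus strand): tcaaatggCCAGGAGAGGGAGCcagaatat
V array peak 5 (chr6:69758808-69758837, minus strand): tcaagtggCCAGGAGAGGGAGCcataatat

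Peaks 4 and 5, 25.8 kb apart, were identical at 28 of 30 bases and at 204 of 300 bases, against 86 of 300 for peaks 1 and 6 of the array aligned the same way.

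No Igkv segment had a reproducible CTCF peak in it or next to it in this tissue. Of the 160 segments, 0 had an optimal summit in the segment or within 1 kb of it, which allows a share of up to 1.88% by the limit of 3 counts (Wilson 95% interval, 0% to 2.34%, counting error only). The same count was 0 in the conservative list, the authors' stricter set, and 0 in the strongest 50909 peaks of either replicate. Genome-wide, 31.9% of all other genes and 6.58% of the other genes of at most 1 kb, which are as short as a V segment, had an optimal summit that close. Among the other antigen receptor loci, 14 of 185 Ighv segments (7.57%, Wilson 95% interval 4.56% to 12.3%), which encode heavy chain variable regions, and 21 of 170 T cell receptor V segments (12.4%, 8.22% to 18.1%) did. These counts varied between replicates. In the strongest 50909 peaks of replicates 1 and 2 they were 7 and 16 for Ighv and 16 and 24 for T cell receptor V segments. The T cell receptor list holds the symbols that begin with Trav, Trbv, Trgv or Trdv, so it leaves out gamma segments with other symbols, and its main parts differed, at 14 of 128 Trav and 7 of 35 Trbv segments. Segments of 1 locus are neighbours and copies of each other, so these shares are descriptions and no test was made between them. Another 16 V segments of the array have symbols that begin with Gm, and 0 of them had a summit within 1 kb. An Igkv segment with 1 kb on either side spans 2.53 kb on average, and the whole 3.15 Mb array held 8 optimal peaks. In these windows a median of 64.6% of 32-base words occur once in the genome. Whether the segments differ from the rest of the array in their share of summits was not tested.

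The segment nearest to a summit was Igkv2-95-1, a pseudogene at 68671162 to 68671883 on the plus strand, 2532 bp from V array peak 3. It was followed by Igkv11-118, a pseudogene 2792 bp from V array peak 2, and Igkv8-28, a V gene 3034 bp from V array peak 6. These 3 were the segments with a summit within 5 kb (1.88%), against 19.8% of other genes of at most 1 kb, 10.3% of Ighv segments and 27.1% of T cell receptor V segments, and Igkv11-118 and Igkv8-28 were named after their values were seen. Igkv3-1, the segment nearest to the J segments, was 5297 bp from the first peak of the V to J interval.

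The median distance from an Igkv segment to the nearest optimal summit was 113 kb, with quartiles of 51.9 and 231.1 kb and the farthest segment at 529 kb. By contrast, the median was 75.3 kb for Ighv segments, 20.7 kb for T cell receptor V segments and 27.8 kb for other genes of at most 1 kb. In all, 15 Igkv segments had a summit within 20 kb, 72 within 100 kb, and 88 had none within 100 kb. Within 20 kb, 41 of 185 Ighv segments and 83 of 170 T cell receptor V segments had one. The same held for 7923 of 18241 other genes of at most 1 kb. Within 100 kb the shares were 45% for Igkv, 55.1% for Ighv and 94.1% for T cell receptor V segments. For other genes of at most 1 kb the share was 70.8%. The Igkv segments beyond 100 kb were 51 of the 100 V genes and 37 of the 60 pseudogenes.

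**Figure D1:**
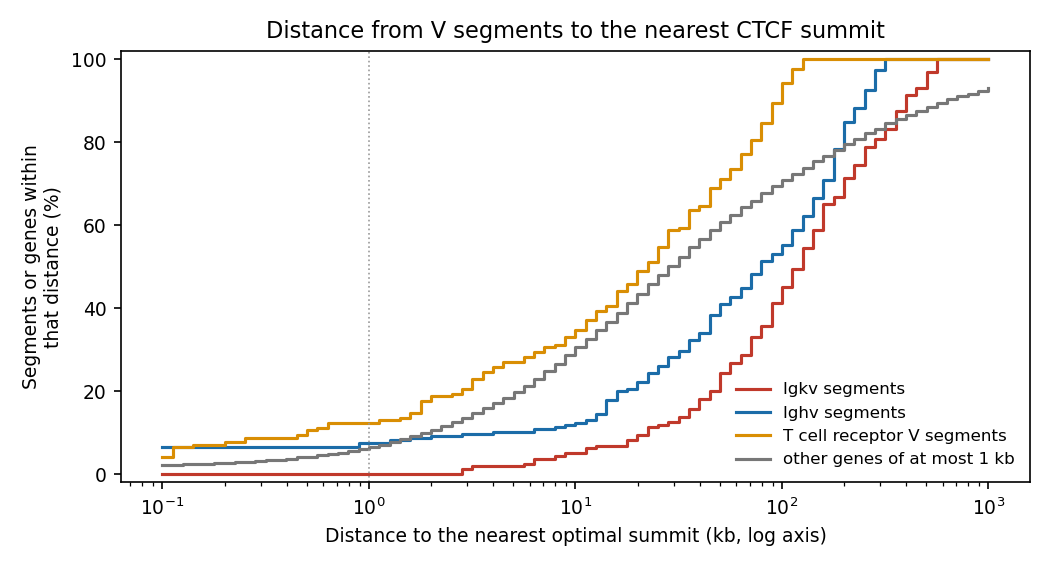
Share of segments or genes (%, y axis) that have an optimal summit within the distance on the x axis (kb, log axis), for 160 Igkv segments, 185 Ighv segments, 170 T cell receptor V segments and the other genes of at most 1 kb; the dotted line marks 1 kb. The Igkv curve is at 0% at 1 kb, while the curves for Ighv and T cell receptor V segments are at 7.57% and 12.4% there.

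Weaker peaks did lie next to a few segments. In the pooled list of 300000 peaks, which was not thresholded for reproducibility, 5 of 160 Igkv segments had a summit within 1 kb, against 26% of the other genes of at most 1 kb, 31 of 185 Ighv segments and 46 of 170 T cell receptor V segments. The segments were Igkv12-98, Igkv4-92, Igkv4-65, Igkv8-34 and Igkv6-25, all named after their values were seen. Igkv12-98 had such a peak in all 3 full lists, at a signal of 6.55 and rank 183910 in the pooled list, rank 130777 in replicate 1 and rank 100166 in replicate 2. The pooled and replicate 1 summits lay inside the segment. The replicate 2 summit was 673 bp outside it, so it did not mark the same place. Igkv8-34 had the strongest, with a pooled signal of 8.52 at rank 110997, and a replicate 1 peak at rank 131205 but none in replicate 2. In the full replicate lists the count was 4 segments (2.5%) in replicate 1 and 15 (9.38%) in replicate 2. Of the other genes of at most 1 kb, 26.3% and 25.2% had a summit that close in these lists.

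The V array as a whole was thin in CTCF peaks. It held 8 optimal peaks, or 2.54 per Mb, against 19.3 per Mb on chromosome 6 and 19.2 per Mb over all assembled chromosomes. The strongest peaks of replicates 1 and 2 numbered 6 and 9 there (7.50 ± 2.12, SD, n = 2). In 1-Mb bins of chromosome 6, the median bin held 14.5 optimal peaks, the bins that start at 68 and 69 Mb held 2 each, and 27 of 146 bins held no more than that. Repeated sequence is common in the array: 57.5% of its 32-base words occur once in the genome. The share is 85.1% on chromosome 6 and 80.8% over all assembled chromosomes. Read length is not given, so these shares do not show which reads could be placed. The GC content of the array is 38.7%, against 41.4% on chromosome 6. Its density in the pooled list was 18.1 per Mb, against 111 per Mb on chromosome 6. The part of uniqueness in the low density was not tested.

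**Figure D2:**
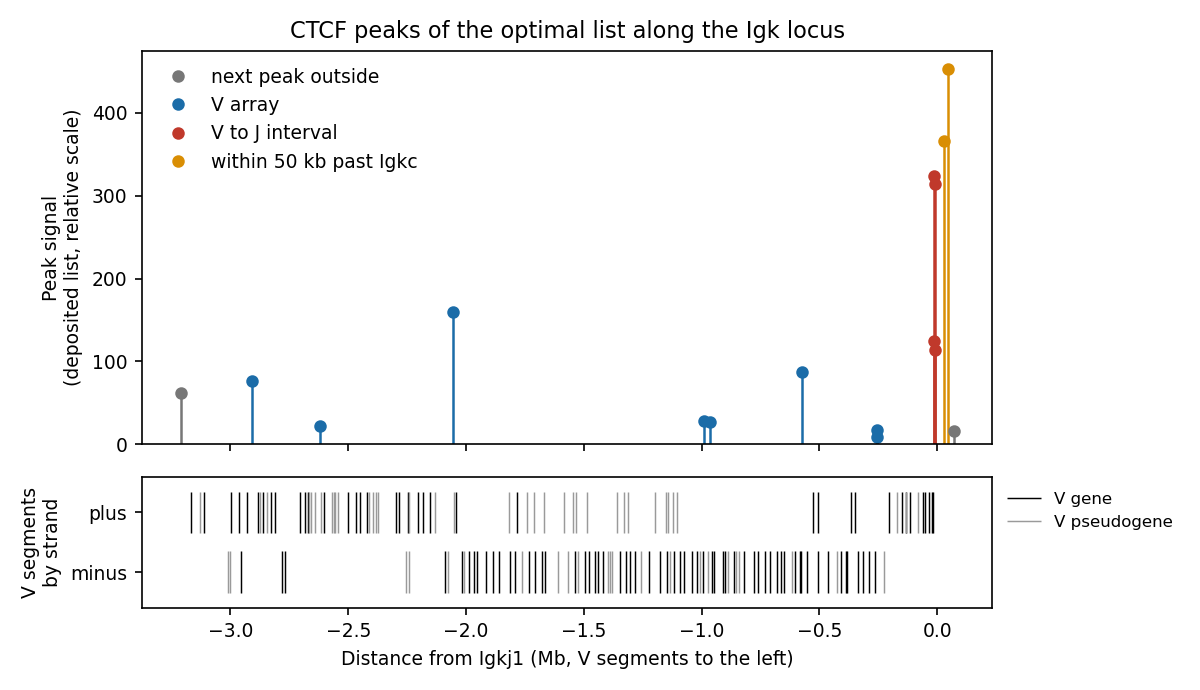
Optimal CTCF peaks along the Igk locus (upper panel, deposited signal on a relative scale, 1 stem per peak coloured by region) above the 160 Igkv segments by strand (lower panel, black for V genes and grey for pseudogenes), with the distance from Igkj1 in Mb on the x axis. The 8 peaks of the V array range from 8.77 to 159, the 4 in the V to J interval from 113 to 323, and the 2 past Igkc are 366 and 452.

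Most V array peaks were weak, and few were among the strongest peaks of both replicates. Signal ranged from 8.77 to 159 with a median of 27.1, 0.399 times the median of the list. Of the 8 peaks, 3 were above the list median, as are 50% of all optimal peaks by definition. Peaks among the strongest of both replicates matched 3 of the 8 within 100 bp (37.5%, Wilson 95% interval 13.7% to 69.4%), against 76.7% of all optimal peaks. In the full replicate lists 6 of the 8 had a peak within 100 bp in both, against 93.5% of all optimal peaks. Those among the strongest of both, peaks 1, 3 and 6, were in the conservative list, which holds 86.4% of all optimal peaks within 100 bp.

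To set both replicates beside each other, the highest replicate peak at most 100 bp from an optimal summit had its signal divided by the median of that replicate's strongest 50909 peaks. V array peak 3, with its summit at 68668630, had a relative signal of 3.04 in replicate 1 and 1.80 in replicate 2 (2.42 ± 0.873, SD, n = 2). Peak 6, at 70147200, had 1.42 in replicate 1 and 1.25 in replicate 2 (1.34 ± 0.125). Peak 1, at 67812694 and 21.2 kb from Igkv14-130, had 0.840 in replicate 1 and 1.38 in replicate 2 (1.11 ± 0.379). These 3 were near or above the replicate medians in both libraries, and peaks 1 and 6 do not differ beyond their spread.

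The other 5 array peaks were lower, and 3 of them (4, 5 and 7) were higher in replicate 2 than in replicate 1. Peak 2, at 68102622, had a relative signal of 0.497 in replicate 1 and 0.170 in replicate 2. Peak 4, at 69733066, had no replicate 1 peak within 100 bp and 0.737 in replicate 2, and peak 5, at 69758825, had 0.108 in replicate 1 and 0.658 in replicate 2. Peak 7, at 70468798, had 0.154 in replicate 1 and 0.417 in replicate 2, and peak 8, 201 bp from it, had no peak within 100 bp in either replicate. Peaks 4 and 5, whose sequences resemble each other, were thus both low in replicate 1. All 8 were intergenic and lay 2532 to 21183 bp from the nearest Igkv segment, and 88.8% or more of the 32-base words within 100 bp of each summit were unique.

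**Figure D3:**
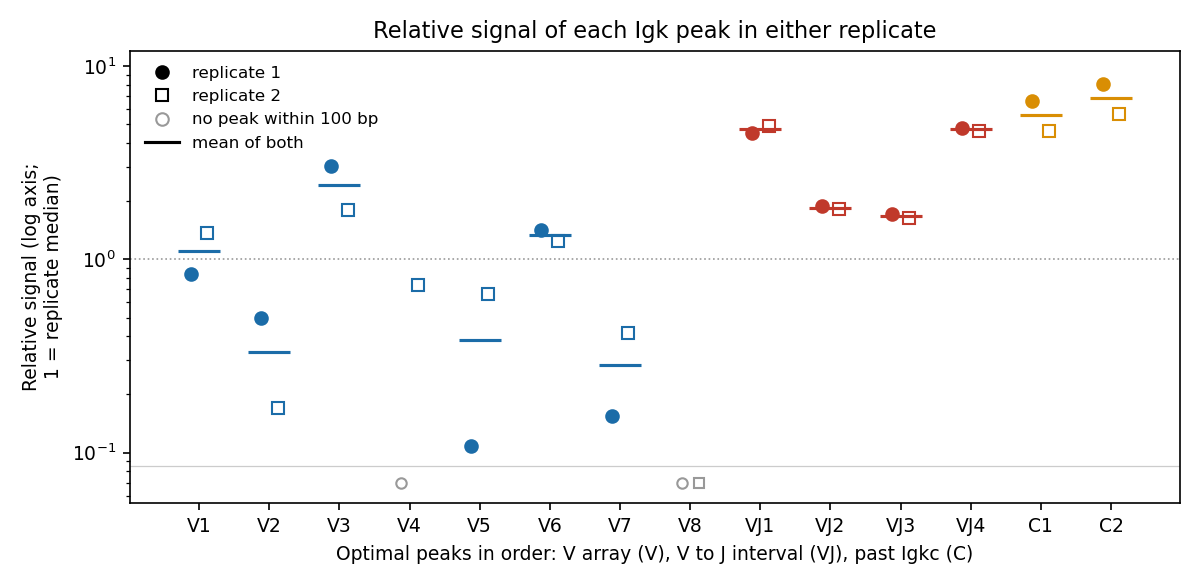
Relative signal (log axis, 1 is the median of a replicate's strongest 50909 peaks) of the 14 optimal peaks of the Igk locus in replicate 1 (filled circles) and replicate 2 (open squares), with a bar at the mean where both have a peak; grey open symbols at the bottom mark a replicate with no peak within 100 bp. The 6 peaks of the V to J interval and past Igkc lie above 1 in both replicates, while V array peaks 4 and 8 lack a peak in at least 1 replicate.

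The Igkv4 and Igkv13 subgroups lay wholly in the longest stretch without a summit. Between V array peaks 3 and 4, 1.06 Mb held no optimal summit, and 238 of 50868 intervals between neighbouring summits of the genome (0.468%) were that long. Igkv2-95-1 and Igkv5-48, a V gene at 69726573 to 69727138 on the minus strand, are the outermost of the 62 Igkv segments in it, 34 V genes and 28 pseudogenes. They made up 38.8% of the Igkv segments on 33.8% of the length of the array. All 33 Igkv4 segments, all on the minus strand, and all 18 Igkv13 segments, 17 of them on the plus strand, were there. Their median distances to a summit were 316 kb for Igkv4 and 317 kb for Igkv13, against 49.3 kb for the 13 members of Igkv3 and 87.0 kb for the 13 of Igkv1. In that stretch 54.5% of 32-base words were unique, against 59.1% in the rest of the array. Peak 4, which ends the stretch, had no replicate 1 peak within 100 bp and was not in the conservative list. In the conservative list the stretch without a summit ran from peak 3 to peak 6 (68668630 to 70147200). The counts and distances above thus hold for the optimal list only.

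The array held fewer of the best matches to the motif than the rest of the genome, and no match of at most 1 mismatch in it had an optimal summit. Matches without a mismatch numbered 1 in the array (0.318 per Mb), against 2.43 per Mb on chromosome 6 and 2.62 per Mb over all assembled chromosomes, where 76.8% of them had an optimal summit. With at most 1 mismatch, the array held 80 matches to the CTCF core motif, or 25.4 per Mb, against 24.1 per Mb on chromosome 6 and 25.3 per Mb over all assembled chromosomes. An optimal summit lay within 50 bp of the centre of 0 of the 80 (up to 3.75% allowed by the limit of 3 counts), against 30.8% of all such matches in the genome, a share that includes the matches without a mismatch. In the pooled list 4 of the 80 had a summit within 100 bp, against 42.2% in the genome. That cut leaves out a match of 1 mismatch that starts at 67699165, 12003 bp from Igkv14-134-1, with its nearest pooled summit at 135 bp. It had a peak among the strongest of both replicates, at 99 bp in replicate 1 (rank 33324) and 25 bp in replicate 2 (rank 38684). Its nearest optimal summit was 113523 bp away. With at most 2 mismatches the array held 495 matches, or 157 per Mb, against 203 per Mb on chromosome 6 and 212 per Mb over all assembled chromosomes. An optimal summit lay at 6 of the 495 (1.21%), against 7.04% in the genome, and these are the 6 array peaks with a match.

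A repeated sequence made up a large share of these matches. The same 14 letters, given here as they stand near Igkv1-135, occurred 35 times in the array, and these sites held few unique words (median 6.47% of 32-base words within 100 bp). Elsewhere in the genome those letters occurred 8853 times, and 0.192% of the sites had an optimal summit.
recurring site near Igkv1-135 (chr6:67614386-67614415, minus strand): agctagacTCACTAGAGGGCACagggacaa

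The counts were therefore repeated for sites in mostly unique sequence. Of the array sites with at least 90% unique words within 100 bp, 0 of 15 had an optimal summit (Wilson 95% interval up to 20.4%), against 41.7% of 44676 such sites elsewhere. For elsewhere sites of the same uniqueness with the same letters as these 15, the share was 32.4% of 717. Without regard to uniqueness, 0 of the 16 array sites whose letters occur once in the array had a summit (up to 19.4%), against 307 of 1459 sites of the same letters elsewhere (Wilson 95% interval from 19.0%), close to the upper limit in the array. Both of these counts were chosen after the data were seen. With at least 50% unique words the counts were 0 of 29 in the array (up to 11.7%) and 39.8% elsewhere. The lone match without a mismatch in the array is 2491 bp from Igkv12-67, all of its 32-base words were unique, and no summit of the optimal list lay on it.
match without a mismatch near Igkv12-67 (chr6:69321672-69321701, minus strand): atctgcacCCAGCAGGTGGCACttatcctc

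**Figure D4:**
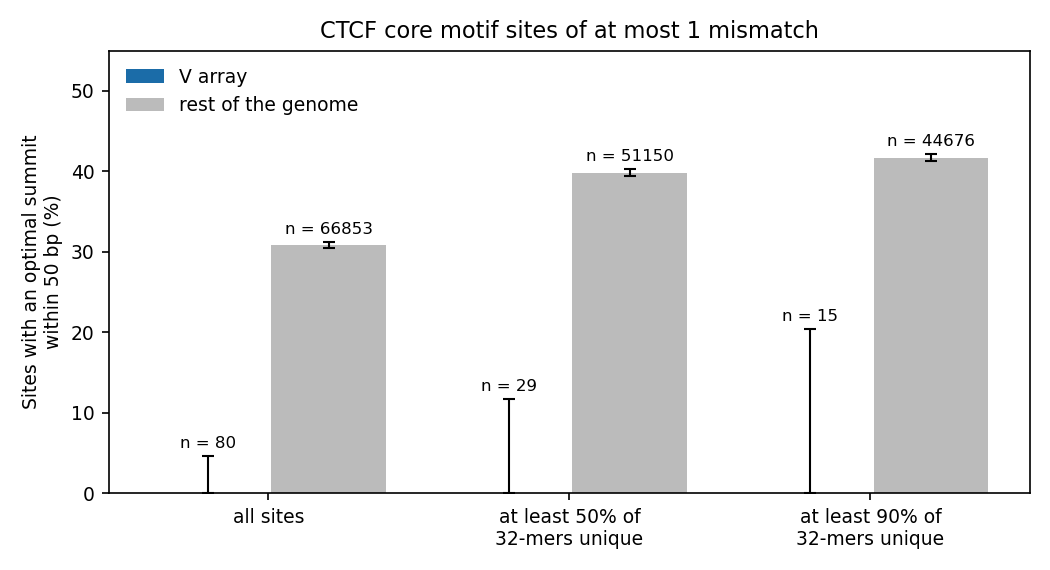
Share of CTCF core motif sites of at most 1 mismatch that have an optimal summit within 50 bp (%, y axis), in the V array (left of each pair) and in the rest of the genome (right), for all sites and for sites with at least 50% or 90% unique 32-base words within 100 bp; error bars are Wilson 95% intervals and n is the number of sites. The share is 0% in the array in each class, against 30.9%, 39.8% and 41.7% in the rest of the genome.

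A match upstream of the segment was a shared feature of part of the Igkv4 subgroup. Within 3 kb upstream and on the strand of the segment, a match of at most 1 mismatch lay beside 12 of 33 Igkv4 segments, at 1770 to 2605 bp with a median of 2088.5 bp, against 2 of the 127 other Igkv segments. In 7 of the 12 the 14 letters were the same. Those letters occurred 47 times elsewhere in the genome, of which 14.9% had an optimal summit, whereas 0 of the 7 in the array did; the median share of unique words was 53.5% at the 7 and 100% elsewhere. Copies beside 3 of the segments show how alike the flanks are.
upstream of Igkv4-78 (chr6:69062295-69062324, minus strand): ctatgttaACAGTAGATGGCAGcacaatca
upstream of Igkv4-63 (chr6:69380555-69380584, minus strand): ctatcttaACAGTAGATGGCAGcacaatca
upstream of Igkv4-59 (chr6:69440736-69440765, minus strand): ctatgttaACAGTAGATGGCAGtacaatca

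Close matches near the segments were counted in the same way, with no test between loci. A match of at most 1 mismatch lay within 1 kb of 4 of 160 Igkv segments, against 47 of 185 Ighv segments and 77 of 170 T cell receptor V segments. With at most 2 mismatches, the limit used for the peaks, the counts were 57 of 160 Igkv segments (35.6%), 70 of 185 Ighv segments (37.8%) and 119 of 170 T cell receptor V segments (70.0%), so the gap to Ighv seen at 1 mismatch was nearly absent. Uniqueness was taken as the median share of unique 32-base words from 1 kb before to 1 kb after the segment. It was 43.9% over all T cell receptor V segments, against 64.6% at Igkv segments and 71.9% at Ighv segments. The T cell receptor value was not uniform, at 24.4% for Trav and 96.1% for Trbv segments. Within 1 kb, 72 of 128 Trav and 4 of 35 Trbv segments had a match of at most 1 mismatch. With at most 2 mismatches the counts were 98 of 128 and 17 of 35.

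CTCF was dense and strong between the array and the J segments. The V to J interval, 70704178 to 70722561 (18.4 kb), held 4 optimal peaks, and all 4 were in the strongest peaks of both replicates and in the conservative list. Their median signal was 219, or 3.22 times the list median. Each lay in intergenic sequence more than 5 kb past Igkv3-1.

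Peak 1, with its summit at 70709474 and 13.1 kb before Igkj1, had a signal of 323 (rank 4070 of 50909) and a relative signal of 4.50 in replicate 1 and 4.92 in replicate 2 (4.71 ± 0.296, SD, n = 2). Peak 4, at 70714410 and 8.15 kb before Igkj1, had a signal of 314 (rank 4419) and a relative signal of 4.77 in replicate 1 and 4.63 in replicate 2 (4.70 ± 0.0975). The outer peaks of the cluster did not differ beyond their spread. Peak 2, 436 bp from peak 1, had a relative signal of 1.88 in replicate 1 and 1.82 in replicate 2 (1.85 ± 0.0444), and peak 3, 1091 bp from peak 4, had 1.71 in replicate 1 and 1.63 in replicate 2 (1.67 ± 0.0569). The inner peaks were lower than the outer ones in both replicates, and peak 2 was above peak 3 in both. The peaks compared come from the same 2 libraries, which are too few for a test, and none was made. Around peak 3, 55.9% of 32-base words were unique, against 100% around the other 3.

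The matches of the 4 peaks pointed apart. Those of peaks 1 and 2 were on the minus strand, reading toward the V array, and those of peaks 3 and 4 on the plus strand, reading toward Igkj and Igkc. Both peaks of the minus strand had 1 mismatch and both of the plus strand had 2. The 2 sites of at most 1 mismatch in the interval thus both had an optimal summit.

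No optimal summit lay from Igkj1 to the end of Igkc, 70722562 to 70726966. The pooled list held 1 peak there.

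The 2 peaks past Igkc had the highest signals of the locus in the optimal list. Peak 1, at 70752652, is intergenic and 25.7 kb past Igkc, with a signal of 366 (rank 2766) and a relative signal of 6.57 in replicate 1 and 4.61 in replicate 2 (5.59 ± 1.39). Peak 2, at 70768977 and 42.0 kb past Igkc, is in an intron of Rpia, which encodes ribose 5-phosphate isomerase, and had a signal of 452 (rank 948) and a relative signal of 8.06 in replicate 1 and 5.64 in replicate 2 (6.85 ± 1.71). Peak 2 was above peak 1 in both replicates. The difference between their means is smaller than either SD. Both peaks were higher in replicate 1, however, so these SDs do not measure the spread of that difference. With 2 libraries no test was made. In replicate 2, peak 1 (4.61) was not above the outer peaks of the V to J interval (4.92 and 4.63). Both matches were on the minus strand, facing the plus-strand matches of peaks 3 and 4 across Igkj and Igkc.

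**Figure D5:**
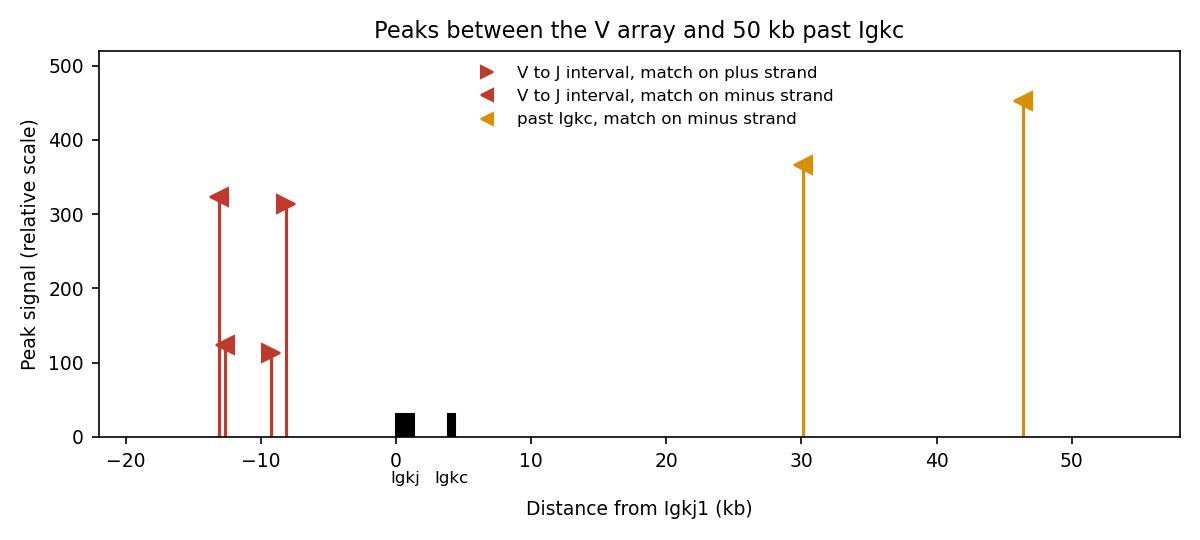
Signal (relative scale, y axis) of the 6 optimal peaks between the V array and 50 kb past Igkc, by distance from Igkj1 (kb, x axis), with triangles that point in the direction of the motif match and black blocks for the Igkj segments and Igkc. The match direction is minus, minus, plus, plus in the V to J interval and minus for both peaks past Igkc.

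Across the locus, 12 of the 14 peaks had a match (85.7%, Wilson 95% interval 60.1% to 96.0%), against 70.8% of all optimal peaks and 3% of the same windows moved by 1 kb. By region these were 6 of 8 in the V array, 4 of 4 in the V to J interval and 2 of 2 past Igkc. Of the 12 matches 4 were on the plus strand, with 2 of 6 in the array, against 50.1% of the matches of all optimal peaks. In both replicates' strongest peaks were 9 of the 14 (64.3%, 38.8% to 83.7%), made up of 3 of 8 in the array and 6 of 6 from the V to J interval onward.

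Beyond the locus, the next optimal peak on the V side was 44541 bp from Igkv2-137, at 67510956, with a relative signal of 0.488 in replicate 1 and 1.33 in replicate 2 (0.910 ± 0.596). On the other side it was at 70791729, 64.8 kb past Igkc in an intron of Rpia, with 0.411 in replicate 1 and no peak within 100 bp in replicate 2. Both were lower than every peak of the V to J interval and past Igkc in each replicate.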

How the data were processed

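CTCF ChIP-seq peak lists of 2 libraries of 1 group (liver, 14.5 days) were used. Per the deposited text files, peaks were called on filtered alignments to mm10 with a control, for each replicate and for both pooled (300000 peaks each). The authors derived from these an optimal (50909) and a conservative (49129) list by the irreproducible discovery rate (IDR). Caller and read length were not given in the sources used here. Column 7 holds a signal for each peak that the authors deposited with no stated scale. The members and lists were chosen with earlier results of these data known.

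A summit is the start plus the offset in the list. Genes came from GENCODE vM21 and sequence from RefSeq's GRCm38.p6; only the 21 assembled chromosomes were used. The CTCF core motif has 14 letters. Uniqueness counts 32-base words that occur once on those chromosomes, on both strands. Shares have Wilson 95% intervals and counts of 0 a limit of 3 counts; both cover counting error only. Replicate error is the SD over 2 libraries. No test between groups was made, since there is 1 group. The peaks named are all 14 of the locus and the next on either side, and the segments named are those at the ends of the longest stretch without a summit; other segments named were chosen after their values were seen. Counting was tested on simulated positions (Python 3.11.15, numpy 2.4.6, pandas 2.3.3, scipy 1.17.1, numba 0.67.0, matplotlib 3.10.9). The alternatives were other lists, distances, windows and mismatches.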

Additional observations from a re-analysis of the deposited data

How the results depend on the processing

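Of 73 alternative values for the 9 summary results, 45 stayed within 1.5 times the value reported (counts) or within 1 SD of the replicates, and 28 did not. No paired comparison between groups was possible because there is 1 group. The count of Igkv segments with a summit within 1 kb stayed at 0 in 9 of 12 alternatives, those without either replicate among them (range 0 to 0). It was 3 at 5 kb, 15 at 20 kb and 5 in the full pooled list; the last 2 settings, like the full pooled list elsewhere, were chosen after seeing the data. The V array held 3 peaks in the conservative list, 3 above the median signal, 5 more than 5 kb from a segment and 52 in the full pooled list, and 6 to 9 with 1 replicate left out. The V to J interval held 4 peaks in every alternative but the full pooled list, with 7. Past Igkc there were 5 peaks in the strongest 100000 pooled peaks, 0 within 20 kb, 9 within 100 kb and 14 in the full pooled list. Peaks per Mb over the locus were 3.10 in the conservative list, 6.83 in the strongest 100000 pooled peaks and 2.79 above the median signal (3.73 to 4.66 with 1 replicate left out). The share with a motif match was 63.6% in the strongest 100000 pooled peaks, 100% above the median signal and 21.4% with at most 1 mismatch (83.3% to 100% with 1 replicate left out), and the share of matches on the plus strand was 0% with at most 1 mismatch, where 3 matches were left. Support by both replicates was 90% in the conservative list, 40.9% in the strongest 100000 pooled peaks, 100% above the median signal and 85.7% with any peak of the full lists. It was 60% for the strongest peaks of replicate 2 and 75% for those of replicate 1. In these 2 values a peak's own replicate supports it by construction. The median signal of locus peaks over that of the list was 1.47, 1.99 in the conservative list and 0.979 above the median signal (1.38 to 1.80 with 1 replicate left out). The cause of these differences was not tested, apart from fewer or more peaks entering by construction. Read depth is not given, so how many weak peaks the array could hold at greater depth is not known. The full lists of the replicates differed most in weak peaks: the array held 41 peaks in replicate 1 and 116 in replicate 2, against 15874 and 16813 on chromosome 6.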
